A study of Ovis aries with 12 samples.

Results

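SLC2A4, SLC2A3 and SLC16A1, which encode the insulin-responsive glucose transporter GLUT4, the high-affinity glucose transporter GLUT3 and the lactate and pyruvate carrier MCT1, were measured in the biceps femoris of near-term fetal sheep. Their probes were found by gene name (each name or its older form, GLUT4, GLUT3 or MCT1) or by the sheep RefSeq entry of the gene. This gave 3 genes of 875 named on the array and 6 probes of 15008, 2 for each gene. RNA came from singleton fetuses whose mothers had been infused with cortisol at 1 mg/kg/day (Solu-Cortef, 6 arrays) or with vehicle (control, 6 arrays). Infusion of the ewe began at about day 115 and lasted until tissue was taken, once labour had begun, at 139 to 144 days. The labels give 7 ewes per arm. The labels name the tissue as biceps femoris, a hind-limb muscle, at 140 days, although their treatment text speaks of the heart's left ventricular free wall and gives 5 samples per group for it. The labels number the arrays as replicates without saying that each came from a fetus of its own, so p-values measure the spread between these samples.

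Glucose enters a muscle fibre by facilitated diffusion through membrane proteins of the SLC2 family. GLUT4, the transporter typical of differentiated muscle and fat, is kept in vesicles inside the cell and moves to the surface after insulin or contraction, so mRNA sets only its supply. GLUT3 has a high affinity for glucose and is best known from neurons, placenta and fetal tissues, where glucose is scarce or demand is high. MCT1 carries lactate and pyruvate together with a proton in either direction, and in muscle it is more abundant in oxidative fibres. Glucocorticoids, of which cortisol is the main one in sheep, rise in the fetus before birth and change how tissues use glucose.

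The sequences below are the array probes that gave every value, and they show how far the 2 probes of a gene are independent of each other. They are written in the array's orientation, with 30 bases of each 60-base probe for SLC2A4 and SLC2A3 and the whole probe for SLC16A1. Capitals mark the 29 bases that the SLC2A4 probes share in the stretch shown.
SLC2A4 probe 1: gGGCAGGGAGAAAAAACTGAAGGTCTGTTG
SLC2A4 probe 2: GGCAGGGAGAAAAAACTGAAGGTCTGTTGt
SLC2A3 probe 1: attttggttctaagttctcaccattccctc
SLC2A3 probe 2: ggaatttttcccagttctcagtgaccaggt
SLC16A1 probe 1: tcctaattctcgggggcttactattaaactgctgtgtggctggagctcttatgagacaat
SLC16A1 probe 2: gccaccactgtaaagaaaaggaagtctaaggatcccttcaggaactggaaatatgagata
The SLC2A4 probes cover bases 962 to 1021 and 963 to 1022 of 1 sheep sequence entry, share 59 of 60 bases, and are in effect 1 measurement made on 2 spots. The SLC2A3 probes cover bases 3584 to 3643 and 3740 to 3799 of the sheep RefSeq mRNA with 96 bases between them, so they read different stretches of the same transcript. The SLC16A1 probes cover bases 730 to 789 and 798 to 857 of an expressed sequence tag, a single cDNA read, 8 bases apart. The array's own files place none of these probes on a genome build, and chromosome positions, exons and introns were not analysed here.

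All signals below are log2 values relative to the 75th percentile of the non-control probes on the same array, so 1 unit is a doubling and 0 is a bright but not extreme probe. That percentile lay between 187 and 447 intensity units over the 12 arrays, from 66.3% to 76.0% of an array's probes exceeded background clearly, and no spot was saturated. Compared between the groups by an exact two-sided permutation test, the percentile gave p = 0.374 and that share p = 0.762. Of 10730 probes tested with limma, 0.0% passed an adjusted p of 0.05, the smallest adjusted p being 0.692, while 732 (6.82%) had an unadjusted p under 0.05. Control array 3 stood apart in fibre genes: the fast myosin gene MYH1 was 0.50 there against 4.92 to 5.93 on the other control arrays, and the slow myosin gene MYH7 was 3.97. Differences that this array moved most are given with and without it.

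SLC2A4 had a lower mean signal in the cortisol group, at 0.593 and 0.607 times the control level on its 2 probes, but not past the threshold adjusted over all probes. Probe 1 read 4.05, 3.63, 4.75, 3.44, 3.59 and 3.63 on control arrays 1 to 6. On cortisol arrays 1 to 6 it read 3.64, 2.98, 3.46, 2.94, 2.10 and 3.44. The groups overlapped: cortisol arrays 2, 4 and 5 lay below every control array, and the other 3 lay within the range of the controls. Having at least 3 cortisol arrays below every control array was true of 16.9% of all tested probes. The means were 3.85 ± 0.49 in controls and 3.09 ± 0.56 after cortisol (SD, n = 6 each), a log2 fold change of -0.75 (95% confidence interval -1.36 to -0.15). By limma the unadjusted p was 0.0177 and the Benjamini-Hochberg adjusted p over all tested probes 0.692. An unadjusted p under 0.05 with a lower mean was reached by 4.68% of tested probes. Probe 2 averaged 3.50 ± 0.54 and 2.78 ± 0.53, with a log2 fold change of -0.72 (95% confidence interval -1.33 to -0.11), an unadjusted p of 0.024 and an adjusted p of 0.692.

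**Figure D1:**
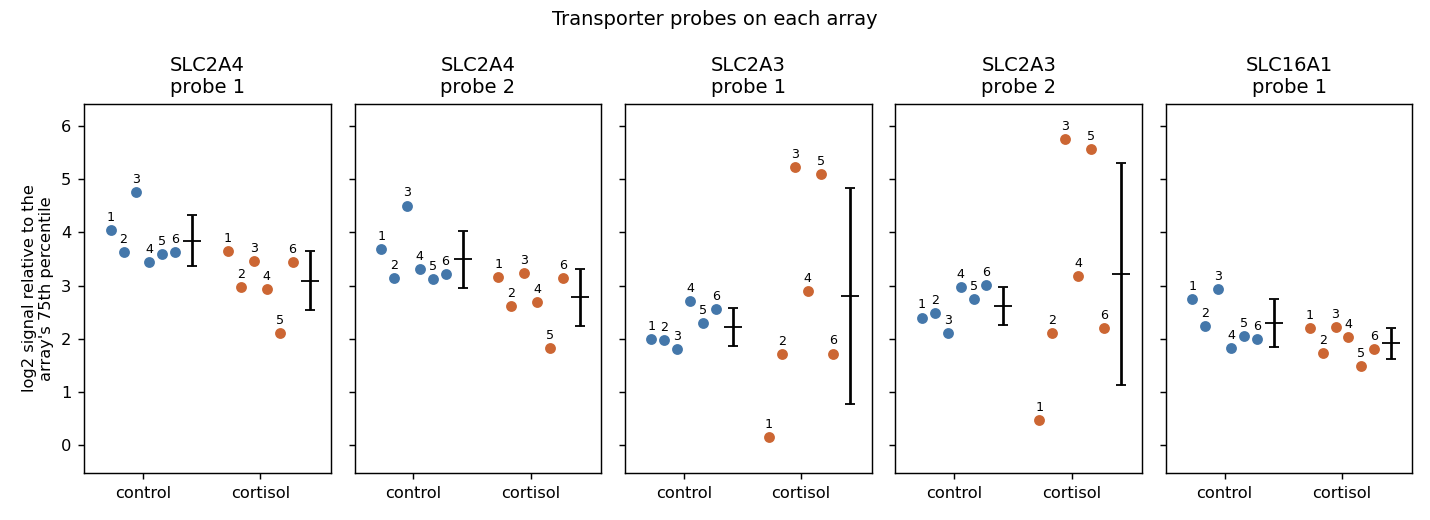
Signal of the 5 transporter probes that were above background, on each array, as log2 units relative to that array's 75th percentile (vertical axis), with control arrays in blue, cortisol arrays in orange and array numbers beside the points. Black bars are the group mean and SD (n = 6); SLC2A4 sits lower after cortisol with overlap, while SLC2A3 after cortisol spans 0.14 to 5.23 on probe 1 around controls that span 1.80 to 2.72.

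Control array 3 had the highest SLC2A4 value of all 12 arrays and cortisol array 5 the lowest. Without control array 3 the probe 1 log2 fold change was -0.57 (adjusted p = 0.727), and without cortisol array 5 it was -0.56 (adjusted p = 0.982). For probe 2 the same omissions gave -0.52 and -0.53, with unadjusted limma p of 0.0541 and 0.0564. The arrays were hybridised on 2 slides, in 3 slide rows that each held 2 arrays of both groups, and the difference was negative in every one: -0.53, -0.90 and -0.84 for probe 1. The difference was thus of 1 sign in each row, with its size depending on the arrays at either end. In whole muscle RNA, fewer fibres and less mRNA per fibre cannot be told apart. The list of muscle fibre markers had 7 of 15 genes measured, 3 higher and 4 lower in mean. MB, the oxygen store of oxidative fibres, had a log2 fold change of -1.46 (unadjusted limma p of 0.00883; -1.33 without control array 3). The slow myosin gene MYH7 had -0.999, or -0.53 without that array, and the fast myosin genes MYH1 and MYH2 had 1.17 and 1.06, or 0.34 and 0.29 without it. The list's other genes were TNNC2 at 0.26 (-0.10 without that array), ENO3 at -0.09 (-0.45) and MYOD1 at -0.52 (-0.54). The list's summed linear signal ran from 526 to 2326 times the 75th percentile in controls and from 1158 to 2088 after cortisol, a sum made up mostly of TNNC2; the part of fibre types in the SLC2A4 difference was not tested. GLUT4 is also the transporter of fat cells, and of the adipocyte markers 5 of 7 were measured, with a summed signal of 5.26 to 25.3 in controls and 3.63 to 5.75 after cortisol. The top of the control range was control array 3, where LPL, the lipase that releases fatty acids from circulating fat, read 4.58 against 1.70 to 2.01 on the other controls. Most of the sum on that array was LPL, and the list was not of 1 direction, with 2 genes higher and 3 lower in mean. FABP4, a fatty acid binding protein of fat cells, was dim, with means of -5.35 in controls and -3.70 after cortisol. It read -0.97 on cortisol array 1 and -5.68 to -2.49 on the other cortisol arrays. Its log2 fold change was 1.65, and smaller without cortisol array 1. PPARG had 0.38, or 0.26 without control array 3, against -1.08 for LPL, or -0.62 without that array. The part of fat cells was not tested, and the SLC2A4 difference without that array is given above.

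SLC16A1 followed the same direction as SLC2A4 with a smaller difference, which passed neither an unadjusted nor an adjusted p of 0.05 in the values reported. Probe 1 read 2.75, 2.24, 2.94, 1.82, 2.05 and 1.99 on control arrays 1 to 6. It read 2.19, 1.73, 2.21, 2.03, 1.49 and 1.80 on cortisol arrays 1 to 6. Cortisol arrays 2, 5 and 6 lay below the lowest control, array 6 by a small margin. Having at least 3 cortisol arrays below every control array was true of 16.9% of all tested probes. Control arrays 1, 2 and 3 stood above every cortisol array, array 2 by a small margin. The means were 2.30 ± 0.45 and 1.91 ± 0.28 (SD, n = 6 each), a log2 fold change of -0.39 (95% confidence interval -0.84 to 0.07), with an unadjusted limma p of 0.0893 and an adjusted p of 0.757. Its unadjusted limma p was under 0.05 with the deposited table (0.0478) and without control array 4 (0.042), with adjusted p over 0.05 in both. Without control array 3 the log2 fold change was -0.26, and within the 3 slide rows it was -0.53, -0.26 and -0.37. Probe 2, whose sequence begins 8 bases after the end of probe 1, was well above background on 0 control arrays and 1 cortisol array, cortisol array 1, with 1.91 to 13.5 intensity units on the 12 arrays. It was therefore not tested, and the SLC16A1 result rests on 1 probe.

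SLC2A4 and SLC16A1 varied together from array to array. Over the 12 arrays the signals of their first probes had a Pearson r of 0.878 (permutation p = 0.00024, adjusted 0.0004 over the 5 relations computed) and a Spearman rho of 0.811 (permutation p = 0.0022, adjusted 0.0055). Without control array 3 and cortisol array 5, the arrays farthest from the median of SLC2A4, r was 0.725. Within the control arrays r was 0.925 and within the cortisol arrays 0.808, so the relation did not come only from the difference between the groups. All signals of an array share its labelling and scaling. The difference between the 2 signals on the same array, a ratio that no scaling by 1 constant per array moves, averaged 1.55 ± 0.19 in controls and 1.18 ± 0.37 after cortisol (SD, n = 6 each). It was lower after cortisol by 0.37 log2 units (exact two-sided permutation p = 0.0563, adjusted 0.281 over 5 ratios). Without control array 3 that difference was -0.31 (exact permutation p = 0.119), and r over the remaining 11 arrays was 0.796.

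**Figure D2:**
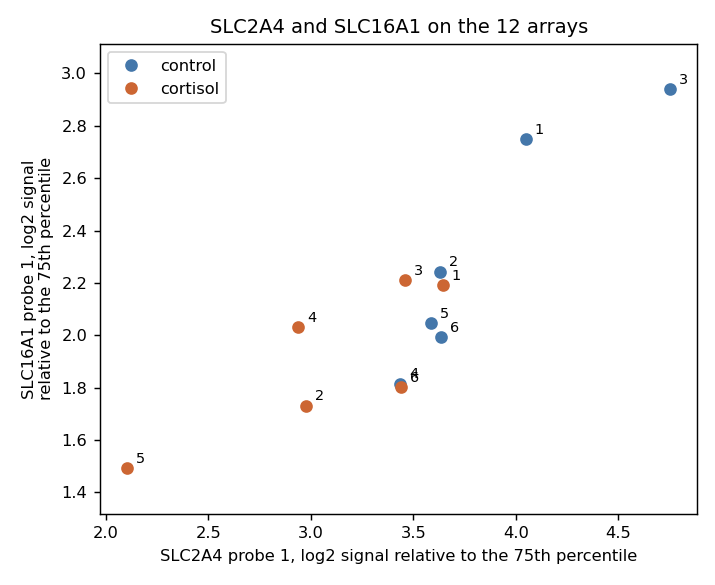
SLC2A4 probe 1 (horizontal axis) against SLC16A1 probe 1 (vertical axis) on the 12 arrays, both as log2 units relative to the array's 75th percentile, with array numbers beside the points. Control array 3 is highest for both genes, at 4.75 and 2.94, and cortisol array 5 lowest for both, at 2.10 and 1.49.

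SLC2A3 gave another picture: the interval of its mean difference spanned 0, and its level scattered far more widely among the cortisol arrays than among the controls. Probe 1 read 1.99, 1.97, 1.80, 2.72, 2.29 and 2.55 on control arrays 1 to 6, a 1.89-fold range. It read 0.14, 1.71, 5.23, 2.89, 5.10 and 1.72 on cortisol arrays 1 to 6, a 34.1-fold range. Cortisol arrays 3, 4 and 5 lay above every control array, and arrays 1, 2 and 6 below every control array, so on this probe no cortisol array fell within the range of the controls. For 3 of them the margin was small. Arrays 2 and 6 read 1.71 and 1.72 against 1.80 on the lowest control, and array 4 read 2.89 against 2.72 on the highest. At least 3 cortisol arrays below and at least 3 above every control array was true of 0.28% of all tested probes. Against the control mean, cortisol arrays 3 and 5 were 8.09-fold and 7.37-fold higher, and cortisol array 1 was at 0.237 times that mean. Probe 2, on another stretch of the transcript, had the same order at both ends, with 0.46, 2.10, 5.75, 3.19, 5.57 and 2.21 on cortisol arrays 1 to 6, against 2.10 to 3.02 on the control arrays. There cortisol arrays 1 and 2 lay below every control, array 2 by a small margin, and arrays 3, 4 and 5 above. Array 6 fell within the range of the controls. The 2 probes had a Pearson r of 0.998 over the 12 arrays (permutation p = 1e-05, the smallest that the resamples can give, adjusted 5e-05), so the scatter was not that of a single spot.

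The mean difference in SLC2A3 was 0.58 log2 units (95% confidence interval -0.99 to 2.15), from 2.22 ± 0.36 to 2.80 ± 2.03 (SD, n = 6 each), with an unadjusted limma p of 0.44 and an adjusted p of 0.890. This interval holds both a fall to 0.504 times and a rise to 4.44 times the control level. Single arrays set the mean: it was 0.094 without cortisol array 3, 0.12 without cortisol array 5 and 1.11 without cortisol array 1. Within the slide rows the difference was -1.06, 1.81 and 0.99, and on the first slide alone it was therefore reversed. Probe 2 gave 0.59 (95% confidence interval -1.02 to 2.20), with an adjusted limma p of 0.890.

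The spread was compared by the ratio of mean absolute deviations from the group median, cortisol over control. For SLC2A3 this ratio was 5.37 on probe 1 (exact two-sided permutation p = 0.00216, the smallest that the 924 splits can give) and 5.54 on probe 2 (p = 0.00649, exact permutation test). Cortisol arrays were somewhat more scattered in general: the median ratio of SDs was 1.34 over the tested probes, and 7.45% of probes had a wider spread after cortisol at an exact p under 0.05, against 0.887% with a narrower one. The SLC2A3 ratios of SDs, 5.61 and 5.84, were larger than those of 99.4% and 99.5% of tested probes. The smallest possible p with a wider spread was reached by 1.39% of probes. Adjusted over all 10715 probes with a value on every array, the exact permutation p was 0.142 and 0.294, and 0.0% of probes passed 0.05. The ratio stayed at 4.10 or more on probe 1 when any 1 array was left out, but the exact permutation p rose to 0.158, 0.152 and 0.158 without cortisol array 3, 4 or 5. SLC2A4 had ratios of 1.42 and 1.20 (exact permutation p = 0.5 and 0.654), or 3.19 on probe 1 without control array 3 (exact permutation p = 0.0455), and SLC16A1 one of 0.678 (exact permutation p = 0.416).

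**Figure D3:**
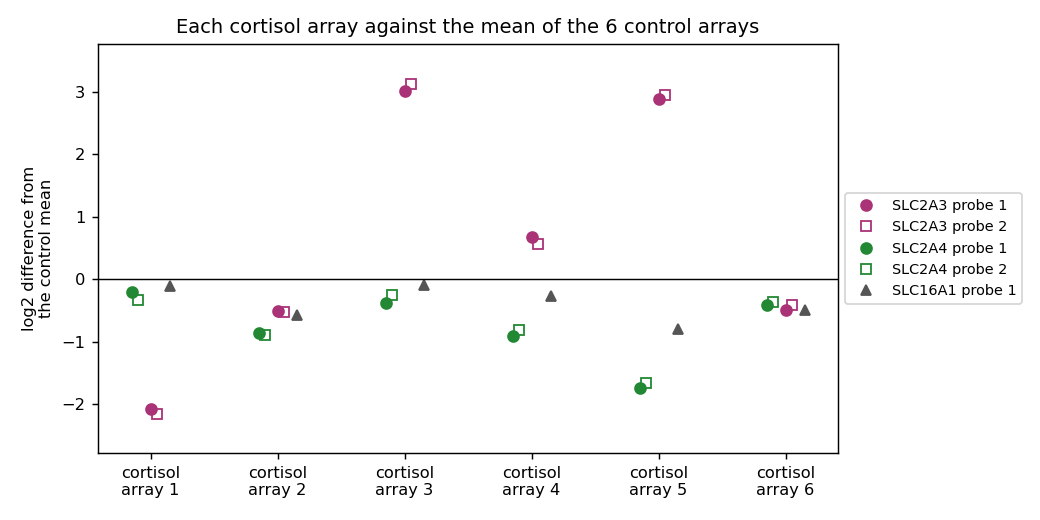
Log2 difference of each cortisol array from the mean of the 6 control arrays, for the probes of SLC2A3 (purple), SLC2A4 (green) and SLC16A1 (grey triangles); filled symbols are probe 1 and open squares probe 2. SLC2A3 lies about 3 units above the control mean on cortisol arrays 3 and 5 and about 2 below it on array 1, while SLC2A4 and SLC16A1 lie below 0 on all 6. Below the control median lay 5 cortisol arrays for SLC2A4 probe 1, 6 for its probe 2 and 4 for SLC16A1. The group medians differed by -0.42, -0.35 and -0.23. SLC16A1 was nearest to the control mean on cortisol arrays 1 and 3, at -0.11 and -0.09. The shares of all tested probes with such counts of arrays below the control mean or median were not computed.

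Over all arrays SLC2A3 was not shown to vary with SLC2A4 or SLC16A1. Its Pearson r over the 12 arrays was -0.509 with SLC2A4 (permutation p = 0.093, adjusted 0.12) and -0.318 with SLC16A1 (permutation p = 0.31, adjusted 0.31). Within the 6 control arrays r was -0.755 with SLC2A4 and -0.883 with SLC16A1, and within the 6 cortisol arrays -0.545 and -0.227, values for which no p was computed. Cortisol array 5 joined a high SLC2A3, 5.10, with the lowest SLC2A4, 2.10, but cortisol array 3 joined the highest SLC2A3, 5.23, with an SLC2A4 of 3.46, near the controls.

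None of the other glucose transporter genes passed an unadjusted p of 0.05 by limma. Of 14 genes of that family listed, 6 had probes and 5 were measured, with 2 higher and 3 lower in mean after cortisol, SLC2A3 and SLC2A4 included. SLC2A1, the basal transporter GLUT1 of most fetal cells and of endothelium, averaged -2.08 ± 0.39 in controls and -1.99 ± 1.15 after cortisol (SD, n = 6 each). Its log2 fold change was 0.09 (95% confidence interval -0.85 to 1.03). Like SLC2A3 it was highest on cortisol arrays 3 and 5, at -0.42 and -0.73. On cortisol arrays 1, 4 and 6 SLC2A1 was at -2.98, -2.84 and -2.92, below every control array. Having at least 3 cortisol arrays below every control array was true of 16.9% of all tested probes. The 2 genes differed on cortisol array 4, where SLC2A3 lay above every control array. On cortisol array 2 SLC2A1, at -2.05, lay within the range of the controls, and SLC2A3 lay below that range by a small margin. SLC2A2, the low-affinity transporter of liver and pancreatic islets, was dim at -3.92 ± 0.64 and -4.49 ± 0.70, with a log2 fold change of -0.57 (95% confidence interval -1.32 to 0.18), which was -0.30 without cortisol array 2. SLC2A2 was highest on control arrays 1 and 4, at -3.31 and -3.15, the arrays on which AHSG, a plasma protein gene of fetal liver, read 5.31 and 6.92. On control array 6, which had the next highest AHSG at 2.10, SLC2A2 was the lowest of the controls at -4.60. Of the liver markers 6 of 8 were measured, and their summed signal ran from 0.868 to 148 in controls and from 0.835 to 3.63 after cortisol; their part in SLC2A2 was not tested. SLC2A8, an intracellular transporter, had a log2 fold change of -0.09 (95% confidence interval -0.45 to 0.27). SLC2A5, the fructose transporter, and SLC5A1, the sodium-coupled transporter of the gut and kidney and the only 1 of 5 in its list with a probe, were not well above background on enough arrays to be tested.

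Among carriers and enzymes of lactate, little beyond SLC16A1 could be measured. Of 18 monocarboxylate carriers and chaperones listed, 2 were measured, and the second, SLC5A8, a sodium-coupled carrier of monocarboxylates, had a log2 fold change of 0.01 (95% confidence interval -0.41 to 0.43). LDHA, the muscle-type lactate dehydrogenase subunit that makes lactate from pyruvate, was among the brightest, at 7.12 ± 0.82 in controls and 7.07 ± 0.40 after cortisol. Its log2 fold change was -0.05 (95% confidence interval -0.77 to 0.67), with 5.54 on control array 3, the array with the highest SLC16A1, against 7.10 to 7.77 on the other controls. Without that array the LDHA log2 fold change was -0.37.

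The measured genes that act on GLUT4 protein had small differences. INSR, the insulin receptor, had a log2 fold change of 0.09 (95% confidence interval -0.34 to 0.52). AKT1, a kinase downstream of it, had -0.10 (95% confidence interval -0.59 to 0.40), and RAC1, a small GTPase of the actin network, 0.09 (95% confidence interval -0.15 to 0.33). These 3 were all that was measured of 25 listed genes of insulin signalling. CAV1, the membrane protein of caveolae and the only measured 1 of 26 genes of vesicle traffic, had -0.08, and PRKAA2, the muscle catalytic subunit of AMP-activated kinase, had -0.16. HK1, which traps glucose as glucose 6-phosphate, had 0.05. None of these differences passed an unadjusted p of 0.05 by limma.

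Of 34 listed regulators of transporter genes 14 were measured, 7 higher and 7 lower, with a median log2 fold change of 0.04. MYC, a transcription factor known to raise glucose transport genes, had the smallest p of them. It averaged 1.82 ± 0.35 in controls and 2.83 ± 0.77 after cortisol (SD, n = 6 each). Of the cortisol arrays 4 lay above every control, a count whose share over all tested probes was not computed. The log2 fold change of MYC was 1.01 (95% confidence interval 0.34 to 1.68), with an unadjusted limma p of 0.00618 and an adjusted p of 0.692. A higher mean with an unadjusted p under 0.05 was reached by 2.14% of tested probes. TXNIP, which holds glucose transporters back from the cell surface, averaged 5.41 ± 0.23 and 6.13 ± 0.88. Its log2 fold change of 0.72 (95% confidence interval -0.01 to 1.44; adjusted p = 0.720) ranged from 0.47 to 0.99 when each array was left out in turn. THRB, the thyroid hormone receptor beta, had -0.52 (95% confidence interval -1.07 to 0.03), or -0.34 without control array 3. Over all 29 measured genes of the lists, 14 were higher and 15 lower with a median of -0.03, and 2 (6.90%), SLC2A4 and MYC, had an unadjusted p under 0.05. Over all tested probes the median was -0.02 and that share 6.82%, close to that of the lists.

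**Figure D4:**
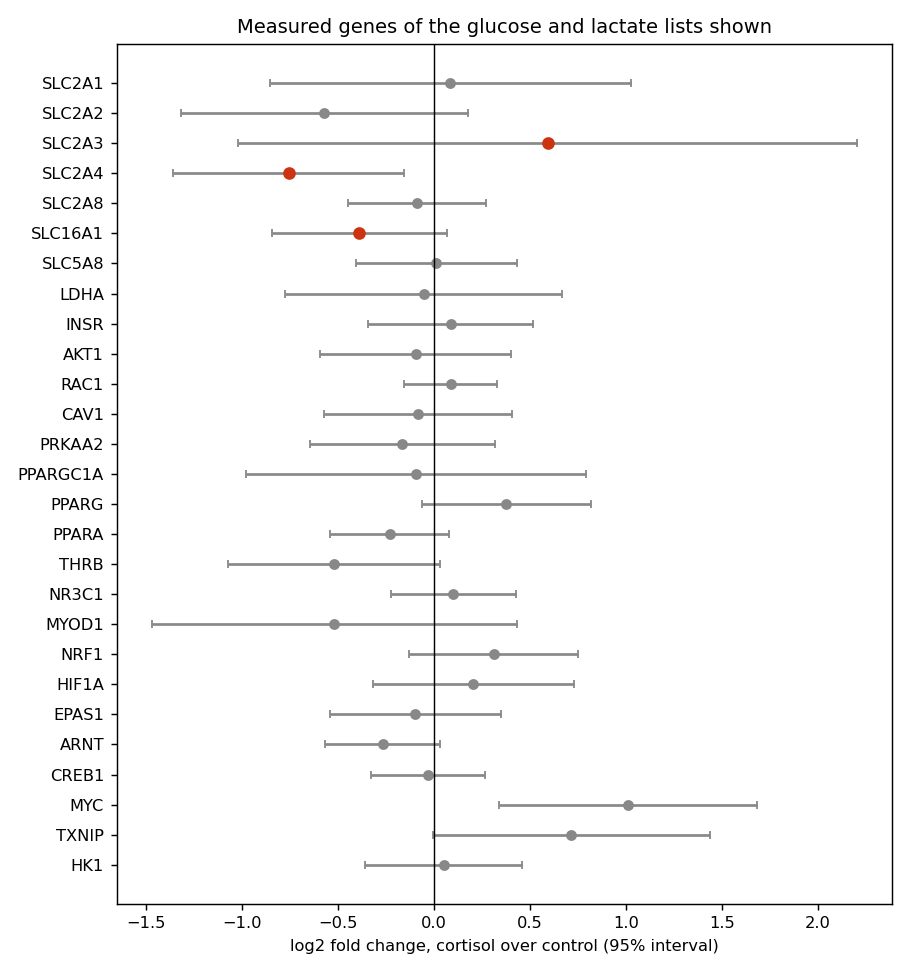
Log2 fold change, cortisol over control, with its 95% confidence interval (horizontal axis) for 27 of the 29 measured genes of the glucose and lactate lists, with SLC2A4, SLC2A3 and SLC16A1 in red. Among these genes the interval excludes 0 for SLC2A4 and MYC only, before adjustment, and that of SLC2A3 is the widest, from -1.02 to 2.20 on its brighter probe.

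MYC and TXNIP were highest on the same arrays as SLC2A3, an observation chosen after the values were seen. MYC read 3.54 and 3.85 on cortisol arrays 3 and 5, and 1.83 to 2.87 on the other 4. TXNIP read 7.34 and 6.81 on cortisol arrays 3 and 5, and 4.78 to 6.04 on the others. The low end did not match: on cortisol array 1, where SLC2A3 was lowest, MYC was 2.87 and TXNIP 6.00, both above every control array. In the cortisol group the summed linear signal of the leukocyte, endothelial and matrix marker lists overlapped with controls, at 0.514 to 0.863 against 0.398 to 0.581, 7.22 to 12.8 against 7.53 to 12.9, and 94.0 to 205 against 94.5 to 168 times the 75th percentile. Of these lists 3 of 14, 6 of 9 and 4 of 10 genes were measured. In mean 3 leukocyte, 1 endothelial and 3 matrix genes were higher after cortisol, and 0, 5 and 1 were lower. The leukocyte sum lay above every control array on cortisol arrays 1, 3, 5 and 6. The 2 leukocyte genes FCER1G and ITGB2 reached an unadjusted limma p under 0.05. Their means were higher by 0.59 and 0.62 log2 units in the cortisol group. Such a p with a higher mean was reached by 2.14% of tested probes. Nerve markers were represented by GFAP alone, at 0.489 to 0.991 in controls and 0.372 to 1.01 after cortisol. HBB, the haemoglobin beta chain of red cells, read 1.095 on cortisol array 1, where SLC2A3 and SLC2A1 were lowest. It read 3.56 to 5.63 on the other cortisol arrays and 2.50 to 5.15 in controls. On cortisol array 2 HBB was 5.34, above every control array, while SLC2A3 lay below every control array by a small margin. The list of HBB had 2 of 9 genes measured, with sums of 5.67 to 35.7 in controls and 2.14 to 49.6 after cortisol. The part of other cell types in the SLC2A3 values was not tested.

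**Figure D5:**
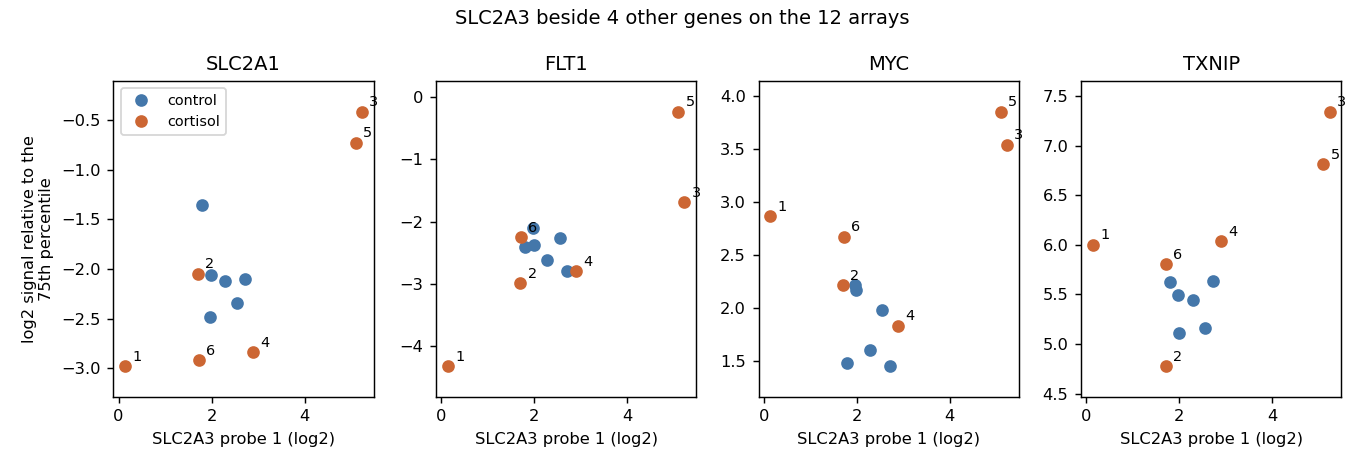
SLC2A3 probe 1 (horizontal axis) against SLC2A1, FLT1, MYC and TXNIP (vertical axes) on the 12 arrays, all as log2 units relative to the array's 75th percentile, with controls in blue and cortisol arrays in orange and numbered. Cortisol arrays 3 and 5 stand highest for all 5 genes, while cortisol array 1 is lowest for SLC2A1 and FLT1 but not for MYC or TXNIP.

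The genes whose deviations from their group means were most like those of each transporter were ranked by Pearson r over the 12 arrays, among 616 named and measured genes, as a description. SLC16A1 was the gene most like SLC2A4 (r = 0.84) and SLC2A4 the gene most like SLC16A1. After it came HEXA, a lysosomal hexosaminidase subunit (r = 0.79), MRCL3, a myosin regulatory light chain (0.72), RABL2B (0.70) and PGD, an enzyme of the pentose phosphate pathway (0.69). The genes most opposed to SLC2A4 were SMAD7, an inhibitor of transforming growth factor beta signalling (r = -0.89), PPARG, the nuclear receptor that drives fat cell differentiation (-0.84), and the cation channel gene TRPM7 (-0.83). SMAD7 and PPARG were both lowest on control array 3, at -4.42 and -0.32, and highest on cortisol array 5, at -2.63 and 1.26, the arrays where SLC2A4 was highest and lowest. Within groups the r of SMAD7 was -0.87 in controls and -0.91 after cortisol. Without control array 3 the likeness to SLC2A4 was 0.75 for SLC16A1, below the 0.84 of HEXA, 0.50 for MRCL3 and -0.85 for SMAD7.

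For SLC2A3 the most alike genes were FLT1, a receptor of vascular endothelial growth factor (r = 0.84), GJA1, which encodes the gap junction protein connexin 43 (0.83), ATP5MC2, a subunit of ATP synthase (0.83), BMPR1B (0.82) and SMAD3 (0.82). FLT1 read -4.32 on cortisol array 1, -1.69 on array 3 and -0.23 on array 5, against -2.79 to -2.11 on the control arrays. The r of FLT1 with SLC2A3 was 0.88 within the cortisol arrays and -0.53 within the controls, and that of GJA1 was 0.87 and 0.94. SLC2A3 scattered far more widely among the cortisol arrays, so the ranking rests mostly on them. A high r within them therefore follows largely from the ranking. The most opposed were ABHD5, a coactivator of triglyceride lipase (r = -0.80), SLC39A7, a zinc transporter (-0.78), and ITGAV, an integrin subunit (-0.74). ABHD5 was 0.88 on cortisol array 1 and -1.73 on cortisol array 5, against -0.94 to -0.30 on the controls.

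For SLC16A1 the list went on after SLC2A4 with SLC2A8 (r = 0.73), UBQLN1 (0.64), SKP1, a ubiquitin ligase subunit (0.63), and ACVR2A, an activin receptor (0.63). SLC2A8 and SLC16A1 tracked each other closely in controls (r = 0.92) and less so after cortisol (0.33), a difference that was not tested. The most opposed were TRA2A, a splicing factor (r = -0.81), SERPINF1 (-0.71) and TRPM7 (-0.69), of which the last also stood among the genes most opposed to SLC2A4. Without control array 3 the r of SKP1 was 0.53 and that of ACVR2A 0.41.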

How the data were processed

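RNA of 12 biceps femoris samples, 6 control and 6 cortisol, was labelled with Cy3 (500 ng, per the labels' protocols) and hybridised to a 1-colour Agilent array. The scanner software was Agilent Feature Extraction 10.1.1.1, per the submitters' processing notes. Per the file headers, the deposited scanner files hold spot intensity, its local background, and a background-subtracted processed intensity with no scaling between arrays, beside other values, 0 or 1 flags per spot. The series table, as deposited, is in log2 units; its columns' medians lie between 5.98 and 5.99 and quartiles differ by at most 0.0342, and its order within each array is that of median signal minus background (Spearman 1). Its normalization method was not given in the sources used here.

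Outlier spots were left out, log2 was taken, the spots of a probe were averaged, and the 75th percentile of an array's non-control probes was subtracted. Probes that exceeded background clearly on 6 or more arrays (10730; 4278 did not) were compared in R 4.3.3 by limma 3.58.1, with lmFit and then eBayes, without covariates, two-sided and adjusted by Benjamini-Hochberg. Precision is limited by the number of arrays; the standard error of a log2 fold change had a median of 0.21. The test was also run on simulated data on 10715 probes, at an adjusted p of 0.05. It recovered 24.0%, 85.0% and 96.5% of changes of 0.75, 1.50 and 3.00 log2 units. These shares belong to that data alone, and whether they hold for the 12 arrays was not tested. On the arrays the ratio of SDs, cortisol over control, had a median of 1.34 and was 5.61 for SLC2A3 probe 1. Ratios were tested by exact permutation of the 12 arrays, and 5 relations between probes with 100000 resamples. For spreads the absolute deviations from the group medians were permuted over all splits, with the medians of the true groups held fixed. The spread test was extended to all tested probes after the members' values had been seen, and its adjustment over all of them replaces a planned one over the members. Of 15008 probes, 1437 had a gene name, by RefSeq accession (704), symbol (497), Entrez number (125), synonym (20) or a hand-made table of the array's names (91); 13571 had none. SLC2A4 was named through that table, from glut4. Reference names came from the sheep assembly ARS-UI_Ramb_v3.0.

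The genes named were the members, all measured transporter and lactate genes, up to 4 genes with the smallest p and the 2 brightest of each other list, and the 5 most alike and 3 most opposed genes of each member; 2 genes that this rule names are not reported here. For a gene outside the members the probe with the highest mean signal was used. Members and lists were chosen with earlier results of these data known, so no count over them is independent support. Same-numbered arrays of the groups did not deviate together throughout (correlations from -0.11 to 0.25), so the number was not used as a pairing. Alternatives were other background corrections and scalings, the deposited table, filters, slide and slide row, variance models and leaving out each array. Promoters and proteins were not analysed here.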

Additional observations from a re-analysis of the deposited data

Results flagged for a closer look

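The screen took 86 groups of 6 values, from the genes chosen by the naming rule above and from array quality. The gap of an end value to the nearest other was taken as a share of the group's range. In 7 groups it was past the 95% limit of Dixon's test for 6 values, and chance alone gives about 1 in 20. The highest values so marked were SLC5A8 at 2.13 on control array 1, AKT1 at 1.28 on control array 6, RAC1 at 4.54 on cortisol array 5, and ABHD5 at 0.88 on cortisol array 1. The lowest were LDHA at 5.54 and PPARG at -0.32, both on control array 3, and the median local background of control array 4, at 18 intensity units. No value of SLC2A4, SLC2A3 or SLC16A1 was marked in this way. Cell type markers outside the naming rule, MYH1, MYH2 and LPL among them, were not screened. On control array 3 these read 0.50, 0.79 and 4.58, each an end value of the controls.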

How the results depend on the processing

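The log2 fold changes of SLC2A4 and SLC16A1 kept their sign and stayed short of the adjusted threshold under all 28 alternatives, from -0.87 to -0.53 for SLC2A4 probe 1 over the settings other than leaving out 1 array. Leaving out 1 array at a time gave -0.86 to -0.56 and -0.81 to -0.52 for the SLC2A4 probes, 0.094 to 1.11 and 0.086 to 1.14 for the SLC2A3 probes and -0.48 to -0.26 for SLC16A1. SLC2A3 reversed on slide 1 alone, to -1.06 and -1.16. The count of probes past the threshold was 0 except on slide 1 alone, where it was 1 of 10730. With normexp background correction 34.2% of all tested probes had a higher mean after cortisol, against 46.0% in the values reported; the cause was not tested. The spread ratio of SLC2A4 probe 2 fell below 1 with the deposited table (0.854), normexp (0.937) and a ratio of SDs (0.997). Leaving out 1 array gave 0.80 to 3.19 and 0.66 to 2.76 for the spread ratios of the SLC2A4 probes, with the highest without control array 3 (exact permutation p = 0.0455) and the lowest without cortisol array 5. It gave 4.10 to 7.48 and 4.23 to 7.28 for SLC2A3, which without cortisol array 3, 4 or 5 missed an exact p of 0.05 (0.154 or less for probe 2, 0.158 or less for probe 1), and 0.502 to 0.991 for SLC16A1. With the replicate block, which the data do not bear out as a pairing, SLC2A4 probe 1 stayed at -0.75 (adjusted p = 0.633), SLC16A1 at -0.39 had an unadjusted limma p of 0.0425, no probe passed the threshold and 843 had an unadjusted p under 0.05, against 732. Among the other transporter and lactate genes the sign changed under 8 of 28 alternatives for SLC5A8 and for LDHA, 4 for SLC2A1 and 1 for SLC2A8. The ratio, relations and likeness without control array 3, and the other named genes without single arrays, were chosen after seeing the data.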
